A study of Mus musculus with 3 samples.

Results

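The respiratory chain and ATP synthase genes were examined in embryoid bodies (EBs), aggregates of mouse ES cells in which the first lineages form in culture. Members were the protein-coding genes whose names fall in the Nduf, Sdh, Uqcr, Cyc1, Cox4 to Cox8, Atp5 and mt-Nd, mt-Co, mt-Cytb and mt-Atp series and which reached 10 counts in any library. Of 108 entries matched by name, 103 were members, among 17655 genes in use in the whole table: 90 lay in the nuclear genome and 13 in the mitochondrial genome. The 5 entries left out were Cox6a2, Cox7b2, Cox8b, Cox8c and a second entry named Atp5o, with 0 to 9 counts in any library. Just inside the limit, Cox4i2 had 10 counts in C2 ceramide day 4 EBs, 27 in DMSO day 4 EBs and 19 in DMSO day 3 EBs.

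All 3 libraries came from wild-type E14K cells, 1 mouse ES cell line, grown without LIF, first as hanging drops and then in suspension culture. C2 ceramide, a cell-permeable ceramide with a short acyl chain, was added at 30 μM at the beginning of day 3 and those EBs were collected on day 4. EBs given DMSO, the vehicle, were collected on day 4 and on day 3. With 1 library per condition no test was possible, and a culture that happened to differ cannot be told apart from an effect of the condition. The first comparison asks how C2 ceramide day 4 EBs differ from DMSO day 4 EBs, and the second how DMSO day 4 EBs differ from DMSO day 3 EBs. The comparisons share libraries, so they are not independent of each other.

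Total counts were 35290094 in C2 ceramide day 4 EBs, 35078820 in DMSO day 4 EBs and 33619197 in DMSO day 3 EBs. T (Brachyury), which marks the primitive streak (PrS), was at 9.47 TPM (a transcript level scaled to gene length and library size) in C2 ceramide day 4 EBs, 109.8 TPM in DMSO day 4 EBs and 3.39 TPM in DMSO day 3 EBs. The summed level of 5 PrS and mesoderm markers, all in use, was 27.7 TPM in C2 ceramide day 4 EBs, 417.3 TPM in DMSO day 4 EBs and 32.1 TPM in DMSO day 3 EBs, and that of 6 pluripotency markers was 1411, 844.0 and 1269 TPM in the same libraries. The highest single pluripotency marker was at 911.3, 628.2 and 948.6 TPM, most of that sum. None of these 11 markers was at 0 counts in any library, and their part in the results on the respiratory chain was not tested. The summed level of 3 epiblast markers was 260.0, 418.6 and 433.9 TPM in the same libraries, and that of 3 definitive endoderm markers 4.28, 616.4 and 5.14 TPM, and their part was not tested either. In bulk RNA, fewer cells of a type and less RNA per cell cannot be told apart.

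The respiratory chain of the inner mitochondrial membrane passes electrons from NADH through complex I, or from succinate through complex II, to coenzyme Q, and on through complex III and cytochrome c to complex IV, which reduces oxygen. Complexes I, III and IV pump protons, and ATP synthase, complex V, uses the gradient to make ATP. Complexes I, III, IV and V are mosaics of proteins encoded in the nucleus and in the mitochondrial genome, whereas complex II is wholly nuclear. The mitochondrial genome is transcribed from both strands into long precursors that are cut into single RNAs. Pluripotent cells are known to rely strongly on glycolysis, and respiration rises as many lineages mature.

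The members together held a large part of the mRNA and differed little between the conditions. Nuclear members summed to 43794 TPM in C2 ceramide day 4 EBs, 44023 TPM in DMSO day 4 EBs and 44527 TPM in DMSO day 3 EBs, which is 4.38%, 4.40% and 4.45% of all TPM. Members of the mitochondrial genome summed to 13577 TPM in C2 ceramide day 4 EBs, 13686 TPM in DMSO day 4 EBs and 15619 TPM in DMSO day 3 EBs. The nuclear sum was nearly flat, with a direction that turned with the scaling of the counts, and the mitochondrial sum was the one that stood higher on DMSO day 3. As listed, the highest member in every library was Atp5b, the catalytic beta subunit of ATP synthase. It had 3968 TPM in C2 ceramide day 4 EBs, 3576 TPM in DMSO day 4 EBs and 3538 TPM in DMSO day 3 EBs. With counts of annotated copies elsewhere in the genome added, mt-Co3 would stand above Atp5b, at 5514, 5494 and 6349 TPM in the same libraries. The mitochondrial sums leave out the counts of such copies. The plot of levels by complex shows the spread of the members around these sums.

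**Figure D1:**
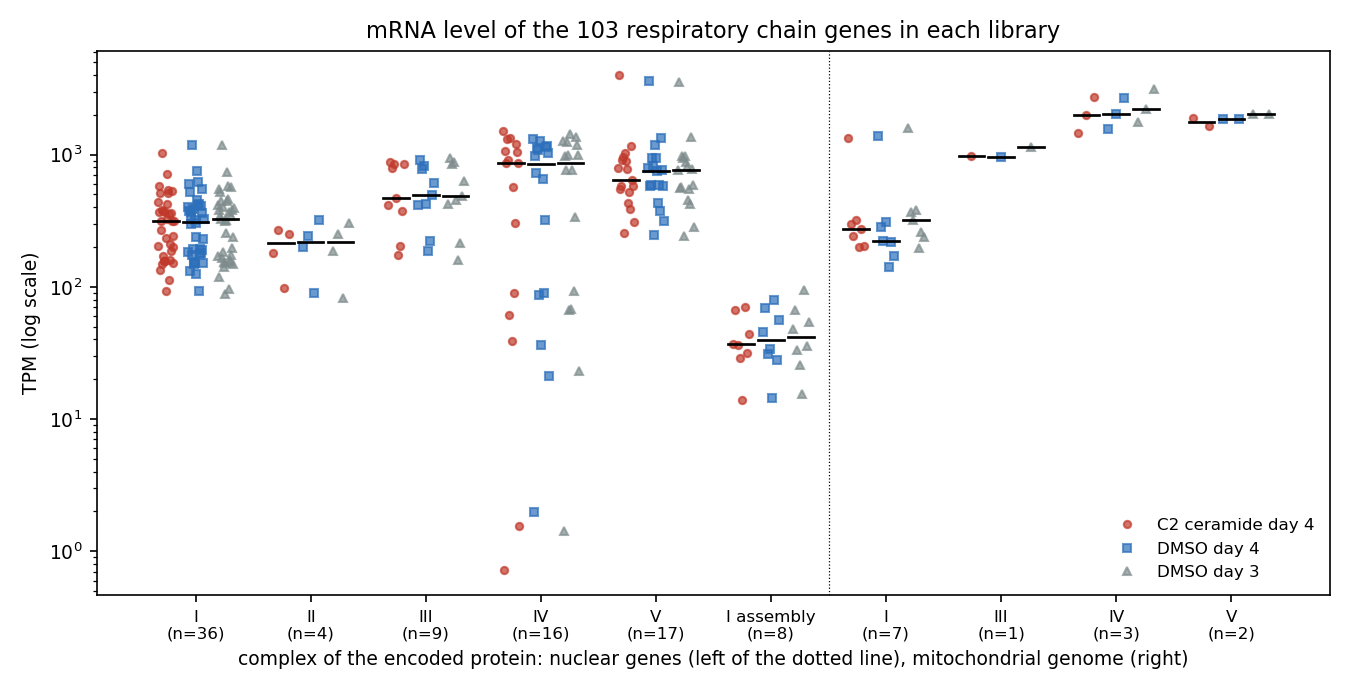
The level of each of the 103 members in TPM (log scale) by complex and genome, for C2 ceramide day 4, DMSO day 4 and DMSO day 3 EBs. Each point is 1 gene and each black line is the median of a group in 1 library. The medians of the 3 libraries lie close together in every nuclear group, the complex I assembly factors lie lowest with medians of 36.6, 39.5 and 41.5 TPM, and Ndufa4l2 and Cox4i2 form the low tail of complex IV.

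With C2 ceramide, few members differed from the vehicle. A member was called higher or lower when its log2 ratio of TPM was more than 0.32 above or below 0, which for a lower level means under 0.8 of the DMSO value. By this limit 3 members were higher and 7 lower in C2 ceramide day 4 EBs than in DMSO day 4 EBs. Among all 17655 genes, 24.5% were higher and 29.1% lower by the same limit. Since the members are abundant, and low genes scatter more, the 6858 genes that reached 1000 counts in any library are the closer background, of which 14.2% were higher and 16.2% lower. Past 2-fold, 0 members were higher and 2 were lower, against 9.97% and 12.3% of all genes and 1.90% and 2.70% of the abundant genes. The median log2 ratio was -0.03 over the 90 nuclear members and 0.04 over the 13 mitochondrial members, beside -0.03 over all genes in use. The median size of the log2 ratio, whatever its sign, was 0.11 over the members, 0.20 over the abundant genes and 0.36 over all genes.

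On DMSO day 4 relative to DMSO day 3 the nuclear members were again close to even, and the mitochondrial members lay lower as a set. On DMSO day 4, 4 members were higher and 6 lower relative to DMSO day 3 by the limit of 0.32, against 30.5% and 22.7% of all genes and 18.0% and 10.7% of the abundant genes. No member passed 2-fold, against 12.8% of all genes higher and 9.45% lower, and 3.08% and 1.05% of the abundant genes. The median log2 ratio was -0.02 over the nuclear members and -0.24 over the mitochondrial members, beside 0.05 over all genes in use. The nuclear medians of the 5 complexes were within 0.1 of 0. For C2 ceramide relative to DMSO on day 4, the sign of the median of all nuclear members and of those of complexes I, II and IV turned with TMM or DESeq2 scaling, as that of complex V did between the DMSO days.

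Between C2 ceramide day 4 and DMSO day 3 EBs, 2 members were higher and 8 lower by the limit of 0.32, against 28.6% and 24.1% of all genes and 18.0% and 10.6% of the abundant genes. Past 2-fold, 0 were higher and 1 was lower, against 11.2% and 9.39% of all genes and 1.97% and 1.04% of the abundant genes. Uqcrq of complex III was among the higher.

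**Figure D2:**
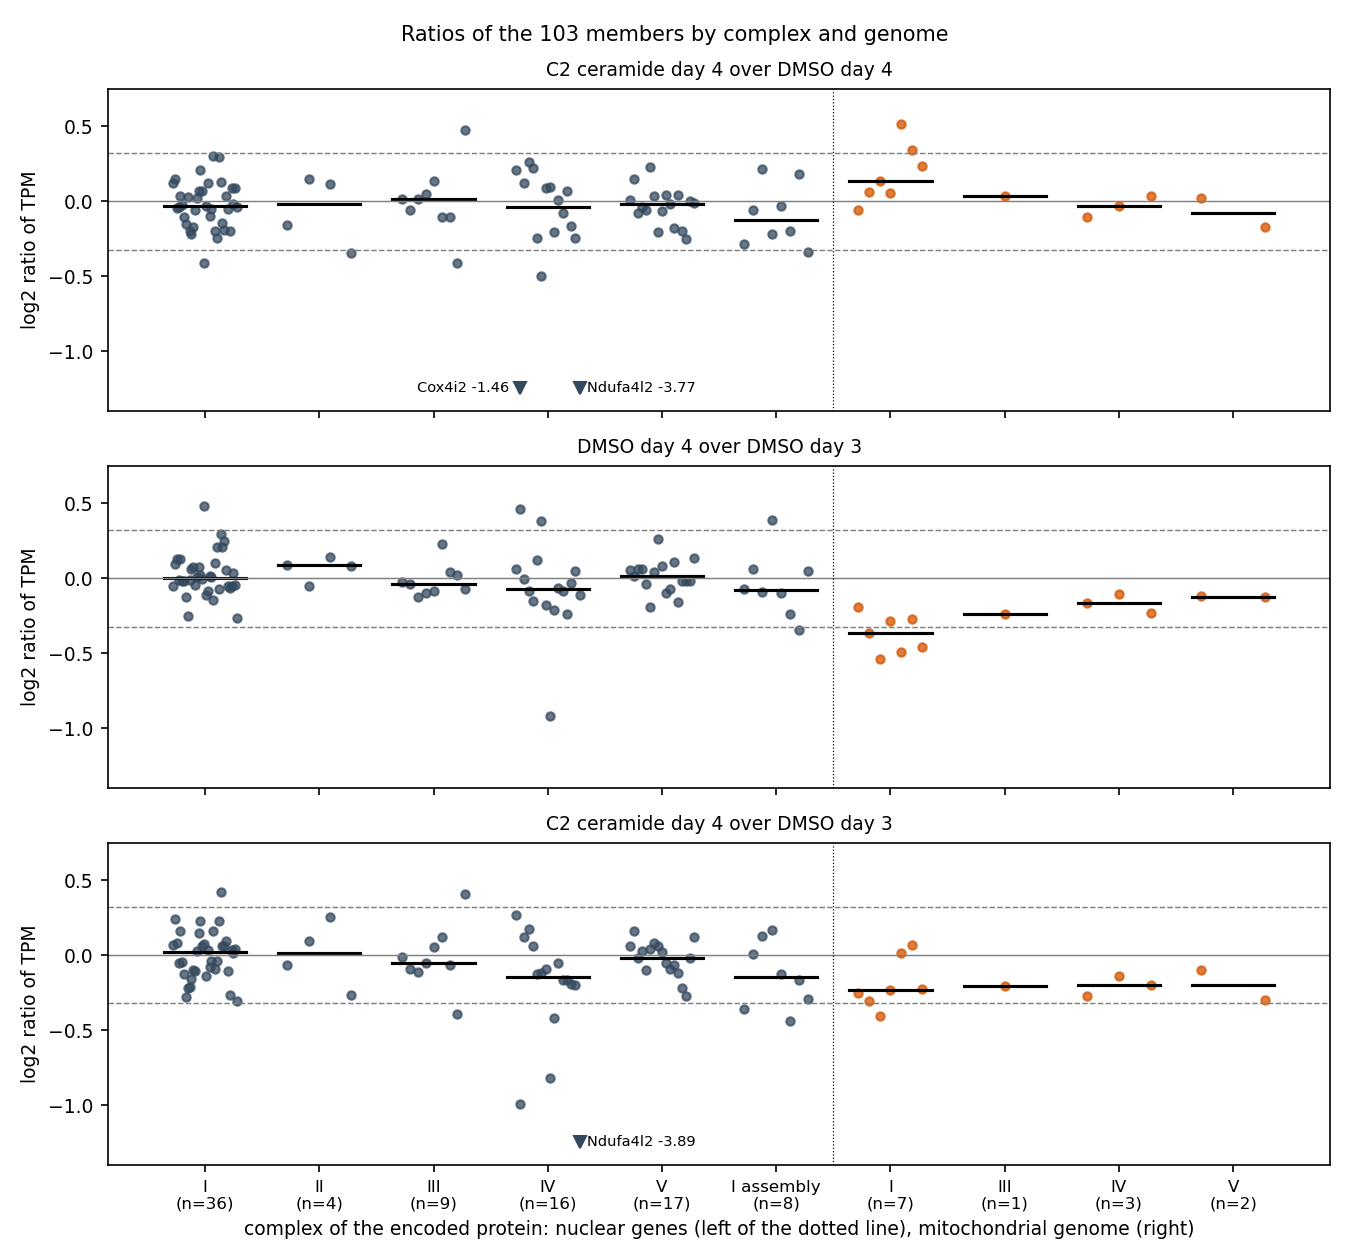
The log2 ratio of TPM of each member by complex and genome, in the 3 comparisons. Points are genes, solid bars are group medians and dashed lines mark the limit of 0.32, and triangles are genes below the axis, with their value. The 13 mitochondrial genes all lie below 0 for DMSO day 4 over DMSO day 3, while nuclear groups straddle 0 in every comparison.

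The 13 mRNAs of the mitochondrial genome spanned a wide range of levels in every library. mt-Co3, a core subunit of complex IV, was the highest, at 2733 TPM in C2 ceramide day 4 EBs, 2663 TPM in DMSO day 4 EBs and 3129 TPM in DMSO day 3 EBs. mt-Nd4l, a small membrane subunit of complex I, was the lowest as listed, at 200.7 TPM in C2 ceramide day 4 EBs, 140.6 TPM in DMSO day 4 EBs and 198.1 TPM in DMSO day 3 EBs. The highest level was 13.6 times the lowest in C2 ceramide day 4 EBs, 18.9 times in DMSO day 4 EBs and 15.8 times in DMSO day 3 EBs. These levels do not count reads given to copies elsewhere in the genome. With the counts of annotated copies added mt-Co3 remained the highest, and mt-Nd6 in place of mt-Nd4l was the lowest, with spans of 27.1, 31.9 and 26.8 times in the same libraries.

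Neighbouring genes of this genome share bases, which bears on how far their reads can be told apart. The shared bases of 3 pairs are shown in capitals, read along the strand of the first gene from GENCODE M21 transcripts (GRCm38). The end of mt-Atp8 at chrM:7907-7969 holds the first 43 bases of mt-Atp6, the end of mt-Nd4l at chrM:10144-10173 holds the first 7 bases of mt-Nd4, and the last 14 bases of mt-Nd5 at chrM:13536-13565 lie opposite the end of mt-Nd6, the 1 mRNA gene on the other strand.
mt-Atp8: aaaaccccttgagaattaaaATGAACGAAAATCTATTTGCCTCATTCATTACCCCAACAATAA
mt-Nd4l: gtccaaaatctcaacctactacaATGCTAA
mt-Nd5: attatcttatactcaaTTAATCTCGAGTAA
In each of the first pairs the capitals begin with the start codon of the downstream gene. The shared stretch is 21.1% of mt-Atp8 and 6.31% of mt-Atp6, and 2.36% of mt-Nd4l and 0.508% of mt-Nd4. mt-Atp8 was at 1646 TPM in C2 ceramide day 4 EBs, 1854 TPM in DMSO day 4 EBs and 2021 TPM in DMSO day 3 EBs, and mt-Atp6 was at 1893, 1868 and 2030 TPM in the same libraries. As listed, the day 4 log2 ratio, C2 ceramide to DMSO, was -0.17 (95% counting interval -0.28 to -0.07) for mt-Atp8 and 0.02 (-0.01 to 0.05) for mt-Atp6. mt-Atp6 has an identical copy over 678 bases, Gm10925, which was given 85.7%, 92.2% and 95.1% of its counts in the same libraries. No annotated copy of mt-Atp8 was found, so their levels cannot be set against each other. The search covered annotated transcripts alone, and a copy of mt-Atp8 without annotation would be missed. With the copy added, the log2 ratio of mt-Atp6 in counts scaled to the library total (CPM) was -0.05 (-0.07 to -0.02). These intervals cover the sampling of reads within 1 library and not the spread between cultures. Whether reads were counted by strand is not given in the sources used here.

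On DMSO day 4, all 13 mitochondrial mRNAs lay below their DMSO day 3 levels, and the 95% counting interval of each ratio lay below 0. The log2 ratios ran between -0.54 and -0.11. The 7 subunits of complex I had the lowest median, -0.36, and the 3 of complex IV and 2 of complex V had medians of -0.17 and -0.12. mt-Nd3 was at 220.3 TPM in DMSO day 4 EBs and 320.4 TPM in DMSO day 3 EBs, a log2 ratio of -0.54 (-0.69 to -0.39). mt-Nd2 was at 284.0 TPM in DMSO day 4 EBs and 365.1 TPM in DMSO day 3 EBs. mt-Nd6 was at 172.5 TPM in DMSO day 4 EBs and 237.2 TPM in DMSO day 3 EBs. These with mt-Nd4l were the 4 past the limit, and all are complex I subunits, as are mt-Nd4 and mt-Nd5, which passed it with TMM and DESeq2 scaling alone. mt-Cytb, the single mitochondrial subunit of complex III, was at 960.8 TPM in DMSO day 4 EBs and 1133 TPM in DMSO day 3 EBs. All 13 remained below 0 under TPM, CPM, TMM and DESeq2 scaling, and mitochondrial mRNA was 0.550% of counts in the DMSO day 4 library and 0.645% in the DMSO day 3 library.

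With C2 ceramide on day 4 the mitochondrial mRNAs stayed near the level of DMSO day 4, with the largest differences in mt-Nd4l, mt-Nd5 and mt-Nd6, which all encode complex I subunits. Of the 13, 9 were above 0 and 4 below 0 on the log2 scale. mt-Nd4l, at the levels above, had a log2 ratio of 0.51 (0.29 to 0.73) from 423 counts in the C2 ceramide library and 294 in the DMSO day 4 library. mt-Nd5 was at 274.1 TPM in C2 ceramide day 4 EBs and 216.3 TPM in DMSO day 4 EBs, a log2 ratio of 0.34 (0.30 to 0.38). mt-Nd6, its neighbour on the other strand, was at 203.2 TPM in C2 ceramide day 4 EBs and 172.5 TPM in DMSO day 4 EBs, a log2 ratio of 0.24 (0.12 to 0.35). mt-Nd1 lay slightly the other way, at 1326 TPM in C2 ceramide day 4 EBs and 1381 TPM in DMSO day 4 EBs. mt-Co1, the catalytic subunit of complex IV, was at 1459 TPM in C2 ceramide day 4 EBs and 1570 TPM in DMSO day 4 EBs, and mt-Co2 was at 1999 and 2045 TPM. mt-Nd4 was at 322.3 TPM in C2 ceramide day 4 EBs and 310.4 TPM in DMSO day 4 EBs.

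**Figure D3:**
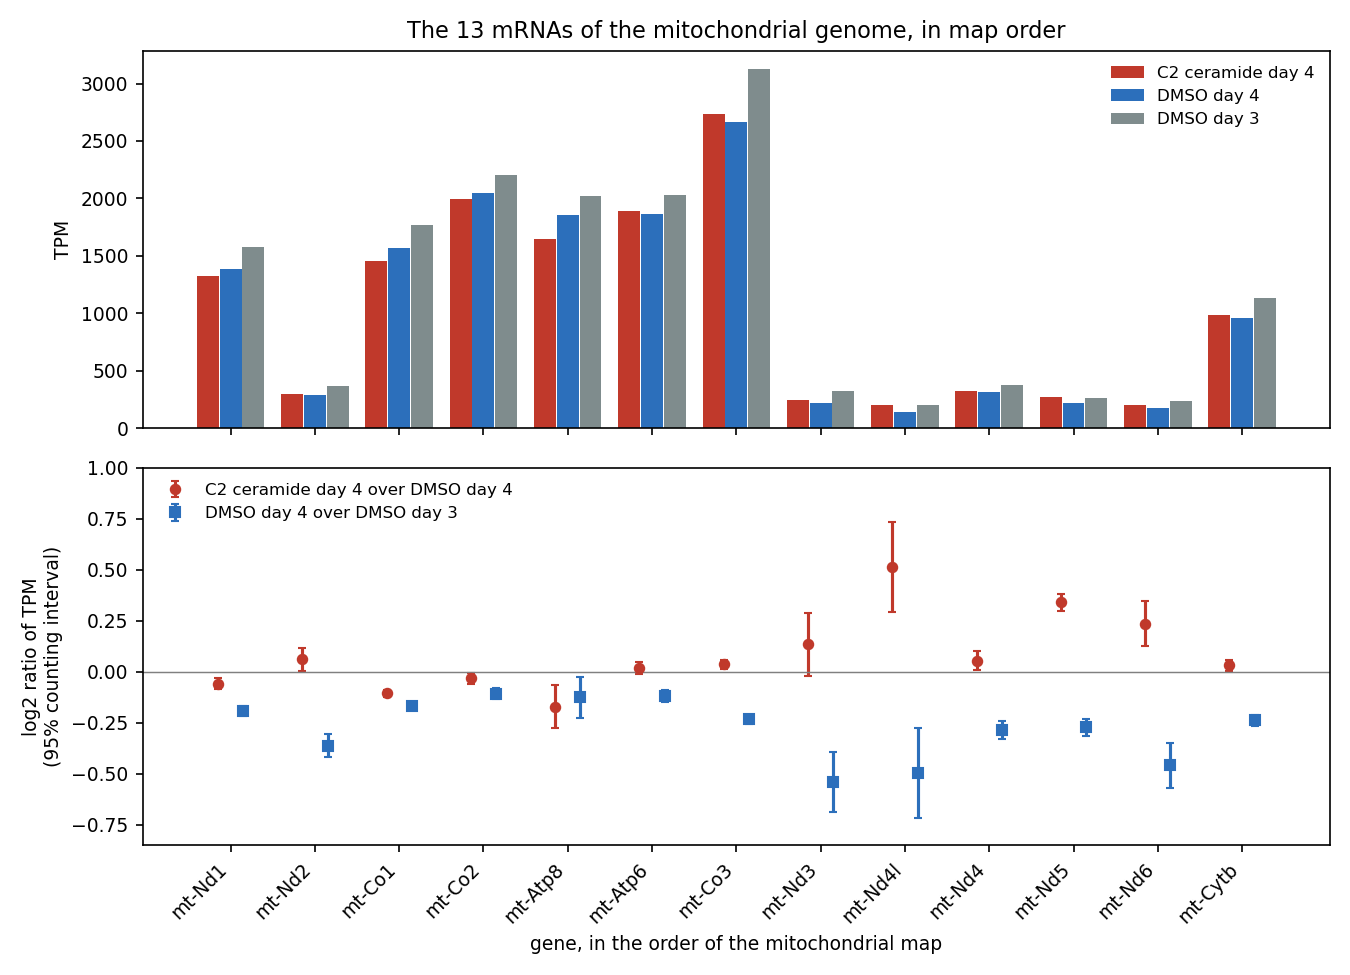
Top, TPM of the 13 mRNAs of the mitochondrial genome in map order in C2 ceramide day 4, DMSO day 4 and DMSO day 3 EBs, with 1 library per bar. Bottom, log2 ratio of TPM with its 95% counting interval, with all 13 below 0 for DMSO day 4 over DMSO day 3 and mt-Nd4l and mt-Nd5 the highest, at 0.51 and 0.34, for C2 ceramide over DMSO on day 4.

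Copies of members elsewhere in the genome took a large share of reads. Of the 103 members, 33 had at least 1 other annotated gene that matched their main transcript at 95% identity or more over at least 100 bases and 30% of its length. Of these 55 copies, 52 were pseudogenes. For the mitochondrial members, the copies' counts came to 39.1% of the members' own in C2 ceramide day 4 EBs, 39.9% in DMSO day 4 EBs and 39.2% in DMSO day 3 EBs. Gm28437 on chromosome 1, identical to mt-Co3 over 783 bases, was given as many counts as mt-Co3, 102%, 106% and 103% in the same libraries. Gm28438, which matches mt-Nd3, was given 226%, 251% and 225%, and with it added mt-Nd3 would stand at 787.4, 774.0 and 1043 TPM. Reads that fit both places cannot be told apart, so the level of a gene with such a copy is uncertain.

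Adding the copies' counts, an alternative chosen after seeing the data, lowered the largest C2 ceramide ratio and left the day 4 pattern in place. Gm10222, identical to mt-Nd4l over 294 bases, held 52.2% of the counts of mt-Nd4l in C2 ceramide day 4 EBs and 87.3% in DMSO day 4 EBs. With the copy added, the log2 ratio of mt-Nd4l in CPM was 0.22, beside 0.52 for the gene alone, and the gene was no longer past the limit. mt-Nd5, which had no copy with more than 2 counts, stayed at 0.35 in CPM. Over DMSO day 3, all 13 remained below 0 on DMSO day 4, between -0.48 and -0.13, with a median of -0.27.

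**Figure D4:**
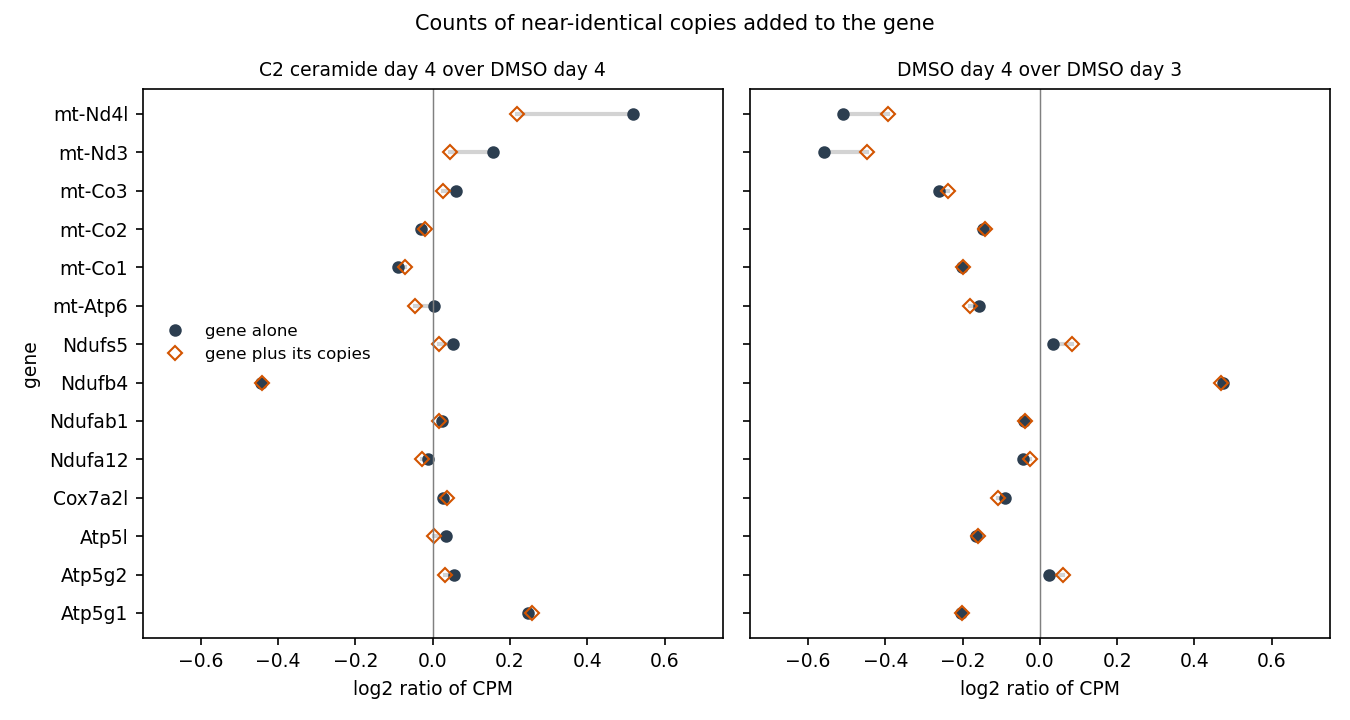
The log2 ratio of CPM for the 14 members whose annotated copies held over 5% of the gene's own counts, for the gene alone (filled) and with its copies added (open), for C2 ceramide over DMSO on day 4 (left) and DMSO day 4 over DMSO day 3 (right). mt-Nd4l moves most, to 0.22 with its copy added, against 0.52 alone, and Ndufb4 does not move at -0.44.

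Complex I, the entry point for electrons from NADH, had 36 nuclear members besides its assembly factors. Their median log2 ratio was -0.03 for C2 ceramide over DMSO on day 4 and 0.00 for DMSO day 4 over DMSO day 3. The highest by mean level was Ndufa7, an accessory subunit, at 1027 TPM in C2 ceramide day 4 EBs, 1178 TPM in DMSO day 4 EBs and 1190 TPM in DMSO day 3 EBs. Ndufb9, an accessory subunit of the membrane arm, was the furthest above 0 with C2 ceramide, at 512.8 TPM in C2 ceramide day 4 EBs and 415.7 TPM in DMSO day 4 EBs, with a log2 ratio of 0.30 in TPM, within the limit, and 0.32 to 0.35 and past it in CPM, TMM and DESeq2 scaling. Ndufb4, another membrane arm subunit (chr16:37647170-37654453), was the 1 nuclear subunit of complex I past the limit in TPM. It was at 93.4 TPM in C2 ceramide day 4 EBs, 124.2 TPM in DMSO day 4 EBs and 88.8 TPM in DMSO day 3 EBs. Only the DMSO day 4 library stood apart, and the log2 ratio was -0.41 (-0.52 to -0.31) for C2 ceramide over DMSO and 0.48 (0.38 to 0.59) for DMSO day 4 over DMSO day 3. The pseudogene entry Ndufb4c, identical to Ndufb4 over 390 bases, was given 82.7%, 82.5% and 83.4% of the counts of Ndufb4, so the pair moved as 1 sequence.

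The 8 Ndufaf genes help to assemble complex I and are not part of it. Their levels were low, between 14.0 and 94.5 TPM, and 6 of 8 were below 0 on day 4 with C2 ceramide relative to DMSO, with a median log2 ratio of -0.13. Ndufaf8 was at 44.2 TPM in C2 ceramide day 4 EBs, 56.0 TPM in DMSO day 4 EBs and 54.1 TPM in DMSO day 3 EBs, a log2 ratio of -0.34 (-0.50 to -0.18) on day 4. In counts it hardly differed, with 610 in the C2 ceramide library and 645 in the DMSO day 4 library, and the call was lost at -0.09 in CPM, -0.06 with TMM and -0.07 with DESeq2. The difference in TPM did not lie in its main coding transcript, which was at 38.7 TPM in C2 ceramide day 4 EBs, 38.6 TPM in DMSO day 4 EBs and 33.7 TPM in DMSO day 3 EBs. A retained-intron transcript was at 4.42, 17.0 and 19.2 TPM in the same libraries. That transcript rested on 18.0, 67.5 and 74.0 estimated counts. Ndufaf3 was at 36.1 TPM in C2 ceramide day 4 EBs and 31.1 TPM in DMSO day 4 EBs, and Ndufaf6, the highest of the group, at 69.8 and 79.9 TPM.

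Complex II, succinate dehydrogenase, links the citric acid cycle to the chain and has 4 subunits. Sdha, the flavoprotein, was at 178.9 TPM in C2 ceramide day 4 EBs, 199.2 TPM in DMSO day 4 EBs and 187.1 TPM in DMSO day 3 EBs. Sdhb, the iron-sulphur subunit, was at 267.3, 240.9 and 249.8 TPM in the same libraries. Sdhc, a membrane anchor, was at 97.8, 90.3 and 81.8 TPM. Sdhd, the other membrane anchor (chr9:50596357-50603812), was the member of complex II past the limit, with 251.3 TPM in C2 ceramide day 4 EBs, 319.6 TPM in DMSO day 4 EBs and 301.7 TPM in DMSO day 3 EBs. Its log2 ratio on day 4, C2 ceramide over DMSO, was -0.35 (-0.39 to -0.30), and it lay just inside the limit with TMM (-0.31) and DESeq2 (-0.31). The anchors, which form a pair in the protein, thus lay on opposite sides of 0, with Sdhc at 0.11 (0.05 to 0.18).

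Complex III, which passes electrons from coenzyme Q to cytochrome c, held the nuclear member furthest above 0 with C2 ceramide, Uqcrq, and another past the limit in the other direction, Uqcrh. Uqcrq, a small subunit (chr11:53427922-53430831), was at 842.9 TPM in C2 ceramide day 4 EBs, 604.9 TPM in DMSO day 4 EBs and 634.5 TPM in DMSO day 3 EBs. Its log2 ratio on day 4 was 0.48 (0.43 to 0.53), and the C2 ceramide library stood above both DMSO libraries. Uqcrh, the hinge protein (chr4:116066965-116075071), was at 371.4 TPM in C2 ceramide day 4 EBs, 494.0 TPM in DMSO day 4 EBs and 486.5 TPM in DMSO day 3 EBs, a log2 ratio of -0.41 (-0.48 to -0.34) on day 4. For both genes the DMSO libraries were close to each other and the C2 ceramide library stood apart. The other 7 nuclear members lay within the limit, among them Uqcr10, the highest on average, at 880.3, 916.1 and 939.6 TPM. The median log2 ratio of the 9 was 0.01 for C2 ceramide over DMSO on day 4 and -0.04 for DMSO day 4 over DMSO day 3.

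Complex IV, cytochrome c oxidase, has tissue-specific forms of several small subunits, and the 2 members past 2-fold with C2 ceramide, Ndufa4l2 and Cox4i2, were of that kind, as were Cox6b2 and Cox7a1. The common forms dominated in every library. Cox4i1, the common form of subunit 4, was at 1515 TPM in C2 ceramide day 4 EBs, 1312 TPM in DMSO day 4 EBs and 1259 TPM in DMSO day 3 EBs. Without tissue-specific forms, the 12 nuclear members of complex IV had a median log2 ratio of 0.04 for C2 ceramide over DMSO on day 4, and 0 of 12 passed the limit. Cox5b was the furthest above 0, at 866.4 TPM in C2 ceramide day 4 EBs and 722.3 TPM in DMSO day 4 EBs, and passed the limit with TMM (0.33).

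Ndufa4l2 (chr10:127514967-127517154) showed the largest difference of all members. It is a paralogue of Ndufa4, a subunit now placed in complex IV, and is known to be induced by hypoxia. Ndufa4l2 was at 1.55 TPM in C2 ceramide day 4 EBs, 21.2 TPM in DMSO day 4 EBs and 22.9 TPM in DMSO day 3 EBs, from 31, 386 and 435 counts. The DMSO libraries were alike, and the C2 ceramide library was 13.7-fold lower than DMSO day 4, a log2 ratio of -3.77 (-4.35 to -3.25). Ndufa4 itself was at 862.0 TPM in C2 ceramide day 4 EBs, 1022 TPM in DMSO day 4 EBs and 988.7 TPM in DMSO day 3 EBs, so the paralogue made up 0.179%, 2.03% and 2.26% of the pair. Cox4i2 (chr2:152754173-152765037), the hypoxia-responsive form of subunit 4 known from lung, was also lower, at 0.718 TPM in C2 ceramide day 4 EBs and 1.97 TPM in DMSO day 4 EBs. Its log2 ratio of -1.46 had an interval of -2.67 to -0.37, since it rests on 10 and 27 counts.

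Cox7a1 (chr7:30184144-30186078), the heart and skeletal muscle form of subunit 7a, differed between days and not with C2 ceramide. It was at 38.8 TPM in C2 ceramide day 4 EBs, 36.3 TPM in DMSO day 4 EBs and 68.5 TPM in DMSO day 3 EBs, a log2 ratio of -0.92 (-1.22 to -0.62) for DMSO day 4 over DMSO day 3. Both day 4 libraries were low and the day 3 library high. The summed level of the striated and heart muscle markers, 5 of 6 in use and none of those at 0 counts, was 11.9 TPM in C2 ceramide day 4 EBs, 41.6 TPM in DMSO day 4 EBs and 8.03 TPM in DMSO day 3 EBs. The part of these markers in the levels of Cox7a1 was not tested. The common form Cox7a2 was at 568.6 TPM in C2 ceramide day 4 EBs, 654.2 TPM in DMSO day 4 EBs and 759.2 TPM in DMSO day 3 EBs. Cox7a2l, a relative that joins complexes III and IV into supercomplexes, was at 90.4, 89.8 and 93.7 TPM.

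Cox6b2 (chr7:4751792-4753094), known from testis, was at 61.6 TPM in C2 ceramide day 4 EBs, 87.1 TPM in DMSO day 4 EBs and 66.8 TPM in DMSO day 3 EBs, a day 4 log2 ratio of -0.50 (-0.67 to -0.33). The DMSO day 4 library stood above the others. The summed level of 4 germ cell markers was 112.2 TPM in C2 ceramide day 4 EBs, with none at 0 counts, 117.3 TPM in DMSO day 4 EBs, with 1 at 0 counts, and 202.4 TPM in DMSO day 3 EBs, with none at 0 counts, and its part in the levels of Cox6b2 was not tested. The muscle form Cox6a2 had 9 counts in C2 ceramide day 4 EBs and 0 in both DMSO libraries, and Cox8b had 0 in all 3. The testis forms were as scarce, with 4, 1 and 6 counts for Cox7b2 and 0, 0 and 5 for Cox8c in C2 ceramide day 4, DMSO day 4 and DMSO day 3 EBs. A count of 0 allows up to 3 counts in a library.

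**Figure D5:**
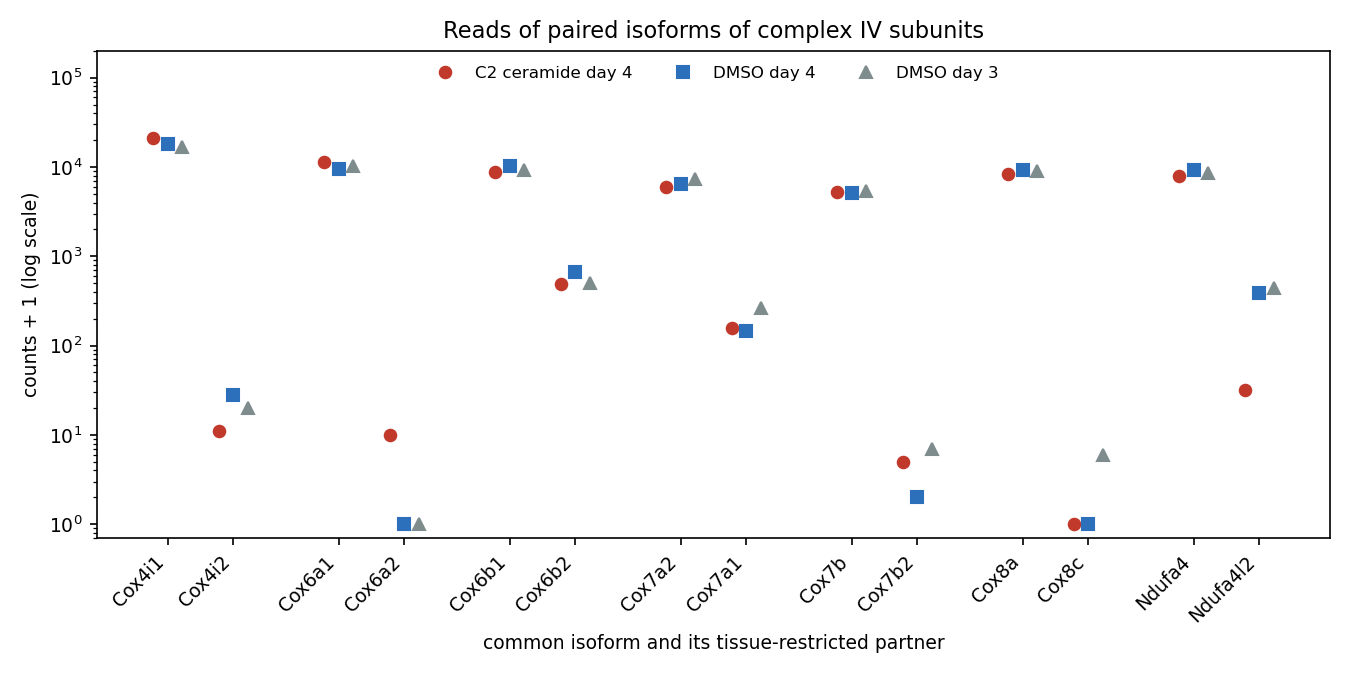
Counts plus 1 (log scale) of 7 common subunits of complex IV and their tissue-restricted partners in C2 ceramide day 4, DMSO day 4 and DMSO day 3 EBs, with 1 library per point. The common forms lie between 5117 and 21174 counts in every library, and Ndufa4l2 is the partner whose C2 ceramide point, at 31 counts, lies furthest below both DMSO points, at 386 and 435.

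Complex V, ATP synthase, differed least of the nuclear groups by the median size of its log2 ratios, 0.06 for C2 ceramide over DMSO on day 4. Its 17 nuclear members had a median log2 ratio of -0.02 for C2 ceramide over DMSO on day 4 and 0.02 for DMSO day 4 over DMSO day 3, with 0 of 17 past the limit in any of the 3 comparisons. The c subunit, which forms the rotor ring, is encoded by 3 genes whose mature proteins are the same. Atp5g1 was at 963.3 TPM in C2 ceramide day 4 EBs, 820.1 TPM in DMSO day 4 EBs and 937.7 TPM in DMSO day 3 EBs. Atp5g3 lay the other way, at 1021 TPM in C2 ceramide day 4 EBs, 1175 TPM in DMSO day 4 EBs and 978.0 TPM in DMSO day 3 EBs. Atp5g2 was at 254.9, 248.5 and 241.0 TPM, with annotated copies that were given over 200% of its counts in every library. The 3 genes summed to 2239 TPM in C2 ceramide day 4 EBs, 2243 TPM in DMSO day 4 EBs and 2157 TPM in DMSO day 3 EBs, and Atp5g3 made up 45.6%, 52.4% and 45.3% of the sum. As listed, the sum was thus even while the DMSO day 4 library differed in its mix. The sum and the shares leave out counts given to annotated copies of Atp5g2 and Atp5g1. Atp5mpl, a small subunit, was the furthest below 0 with C2 ceramide, at 646.6 TPM in C2 ceramide day 4 EBs and 770.1 TPM in DMSO day 4 EBs. Atpif1, the inhibitor that binds ATP synthase, is not matched by the naming rule and was at 1265, 1275 and 1277 TPM.

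Promoter sequence was examined because many nuclear members are known targets of the activator NRF1. RefSeq promoters of GRCm38.p6, from 250 bases before to 50 after the gene's start, were matched by Entrez Gene ID for 74 of the 90 nuclear members. The core of the NRF1 motif, CGCATGCG, which reads the same on both strands, was present in at least 1 promoter of 11 members, or 14.9%, and of 2.07% of the 27025 genes in the table. This core was chosen after a longer form had been searched. The 27025 genes were not limited to those in use, and the share among genes of like level or base composition was not computed. The core was in 2 of 32 nuclear complex I subunits, 0 of 3 of complex II, 2 of 5 of complex III, 1 of 12 of complex IV, 4 of 15 of complex V and 2 of 7 complex I assembly factors. A motif in each of 4 promoters is shown in capitals with 20 bases on either side where the window allows, on the gene's strand, to show that genes of different complexes hold the same letters. They lie at chr17:56717683-56717730, chr9:108936659-108936697, chr5:115349092-115349139 and chr15:102671061-102671108 in the order printed.
Ndufa11: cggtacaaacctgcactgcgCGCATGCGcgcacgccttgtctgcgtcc
Uqcrc1: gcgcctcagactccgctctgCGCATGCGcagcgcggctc
Cox6a1: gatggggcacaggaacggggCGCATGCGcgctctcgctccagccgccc
Atp5g2: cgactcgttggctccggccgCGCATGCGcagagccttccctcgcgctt
These 4 genes, which are not all of those with the motif, lay within the limit for C2 ceramide over DMSO on day 4. The 11 members with the motif had a median log2 ratio of 0.01 for C2 ceramide over DMSO on day 4 and -0.08 for DMSO day 4 over DMSO day 3, and the 63 without it had -0.05 and -0.01. Nrf1 itself was at 67.3 TPM in C2 ceramide day 4 EBs, 72.2 TPM in DMSO day 4 EBs and 78.1 TPM in DMSO day 3 EBs.

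Other genes of the pathway were read from 7 lists, to be set against the shares of all genes past the same limit, 24.5% higher and 29.1% lower with C2 ceramide over DMSO on day 4 and 30.5% higher and 22.7% lower for DMSO day 4 over DMSO day 3. Of 43 assembly factors outside the naming rule, 3 were higher and 4 lower past the limit on day 4 with C2 ceramide relative to DMSO, with a median log2 ratio of 0.01. Atpaf1, which assembles the catalytic head of ATP synthase, was at 51.3 TPM in C2 ceramide day 4 EBs and 32.0 TPM in DMSO day 4 EBs, a log2 ratio of 0.68 (0.56 to 0.80). Sdhaf1, an assembly factor of complex II, was at 8.19 TPM in C2 ceramide day 4 EBs and 11.9 TPM in DMSO day 4 EBs. Cox15, which makes the heme A of complex IV, was at 13.1 TPM in C2 ceramide day 4 EBs and 18.2 TPM in DMSO day 4 EBs.

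Of 31 genes that express the mitochondrial genome, 1 was higher and 5 lower past the limit with C2 ceramide, with a median log2 ratio of -0.06, no larger a share than among all genes (24.5% and 29.1%). Tefm, the elongation factor of the mitochondrial RNA polymerase, was at 34.4 TPM in C2 ceramide day 4 EBs and 47.6 TPM in DMSO day 4 EBs, and Tfb2m, its initiation factor, at 17.0 and 12.7 TPM. Mtrf1l, a release factor, was at 4.02 TPM in C2 ceramide day 4 EBs and 7.12 TPM in DMSO day 4 EBs. For DMSO day 4 over DMSO day 3, where the mitochondrial mRNAs were lower, 3 of these 31 genes were higher and 0 lower past the limit, beside 30.5% and 22.7% of all genes, and the median was 0.09. Tfam, which packages and helps to transcribe the genome, was at 79.1 TPM in DMSO day 4 EBs and 69.9 TPM in DMSO day 3 EBs.

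Of 78 mitochondrial ribosomal proteins, 3 were higher and 2 lower past the limit with C2 ceramide, with a median log2 ratio of -0.02. Mrps6, of the small subunit, was at 115.1 TPM in C2 ceramide day 4 EBs, 201.7 TPM in DMSO day 4 EBs and 112.2 TPM in DMSO day 3 EBs, high in DMSO day 4 alone like Ndufb4. Mrps18b was at 253.4 TPM in C2 ceramide day 4 EBs and 181.4 TPM in DMSO day 4 EBs.

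Of 14 genes of cytochrome c and coenzyme Q synthesis, 1 was higher and 2 lower past the limit with C2 ceramide, with a median log2 ratio of -0.11. On DMSO day 4, 3 of the 14 were higher than on DMSO day 3 and 0 lower, with a median of 0.27. The share that was higher was thus near that of all genes (30.5%) and of the abundant genes (18.0%). Pdss1, which makes the side chain of coenzyme Q, was the 1 higher with C2 ceramide, at 23.7 TPM in C2 ceramide day 4 EBs and 15.1 TPM in DMSO day 4 EBs. In that comparison 9 of the 14 were below 0 and 5 above. Of 17 genes of the citric acid cycle and pyruvate dehydrogenase, 0 passed the limit with C2 ceramide, with a median log2 ratio of -0.09. Of the 17, 12 were below 0 and 5 above. In DMSO day 4 EBs 4 were higher and 0 lower relative to DMSO day 3 EBs, where 30.5% of all genes and 18.0% of the abundant genes were higher. Pdha1, the catalytic subunit of pyruvate dehydrogenase, was the furthest above 0 with C2 ceramide. It was at 129.9 TPM in C2 ceramide day 4 EBs, 106.5 TPM in DMSO day 4 EBs and 76.4 TPM in DMSO day 3 EBs.

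Of 11 regulators of nuclear respiratory genes, 2 were higher and 1 lower past the limit with C2 ceramide. Esrrb, which is also a pluripotency factor, was at 10.98 TPM in C2 ceramide day 4 EBs, 4.26 TPM in DMSO day 4 EBs and 6.60 TPM in DMSO day 3 EBs. Ppargc1a had 14 counts in C2 ceramide day 4 EBs and 0 in both DMSO libraries, and Esrra was at 5.47 TPM in C2 ceramide day 4 EBs and 7.36 TPM in DMSO day 4 EBs. Of 9 carriers and creatine kinases, 1 was higher and 0 lower past the limit with C2 ceramide, the adenine nucleotide carrier Slc25a31 with 48 counts in C2 ceramide day 4 EBs and 16 in DMSO day 4 EBs. Slc25a4, the heart and muscle form of that carrier, differed between days, at 234.8 TPM in DMSO day 4 EBs and 127.4 TPM in DMSO day 3 EBs.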

How the data were processed

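The authors aligned reads of SMART-Seq v4 cDNA (Nextera XT, NovaSeq) with DRAGEN to GRCm38 and GENCODE M25 and deposited, for 55487 genes and 142699 transcripts, TPM and estimated counts (expected counts, not normalized, not whole). Depth was 33619197 to 35290094 counts per library. Each library is a group by its labels, and the vehicle is named in the study's methods. Members and lists were chosen with earlier results of these data known. Ratios of TPM were taken in Python 3.11.15 (NumPy 2.4.6, pandas 2.3.3, SciPy 1.17.1, Matplotlib 3.10.9). TPM values of 0 were replaced by 0.001. Intervals are exact conditional (Clopper-Pearson) 95% intervals from rounded counts and library totals, centred on the TPM ratio and tested on simulated data. They cover counting error only, and PCR copies are not independent molecules. No p-value was computed. The motif core was chosen after a longer form of the NRF1 motif had been searched and its share of promoters seen. Copies were searched with BLAST in GENCODE M21 transcripts. Named genes were all mitochondrial and complex II members, the highest and the most different members of each complex, members past 2-fold, isoform pairs and some of the extremes of each list with at least 50 counts. Tfam, Nrf1, Ppargc1a, Slc25a31 and the remaining members past 1.25-fold were added after their values were seen. The values of 1 member are not reported here. Alternatives were CPM, TMM (edgeR 4.0.16) and DESeq2 1.42.0 size factors in R 4.3.3 on rounded counts, TPM without the mitochondrial genome, a pseudocount of 1 TPM, other count minimums (1 and 100), structural subunits without tissue-specific forms, and copies added. The setting of structural subunits left out the assembly factors and, by name, tissue-specific forms such as Ndufa4l2, Cox4i2, Cox6b2 and Cox7a1.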

Additional observations from a re-analysis of the deposited data

Results flagged for a closer look

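Both ribosomal RNAs of the mitochondrial genome, which are not protein-coding and so not members, were above the DMSO libraries with C2 ceramide. mt-Rnr1, the small ribosomal RNA, was at 283.9 TPM in C2 ceramide day 4 EBs, 128.3 TPM in DMSO day 4 EBs and 175.5 TPM in DMSO day 3 EBs, a log2 ratio of 1.15 (95% counting interval 1.07 to 1.22) on day 4, C2 ceramide over DMSO. mt-Rnr2, the large ribosomal RNA, was at 1665 TPM in C2 ceramide day 4 EBs, 1141 TPM in DMSO day 4 EBs and 1339 TPM in DMSO day 3 EBs, a log2 ratio of 0.55 (0.53 to 0.57) on day 4. There were 27.2 ribosomal RNA counts per 100 mRNA counts of the mitochondrial genome in C2 ceramide day 4 EBs, 18.4 in DMSO day 4 EBs and 18.9 in DMSO day 3 EBs. The mRNA counts leave out reads given to copies elsewhere in the genome, and copies of the ribosomal RNAs were not searched. How far SMART-Seq v4 cDNA samples ribosomal RNA was not examined. Each condition had 1 library, and the difference was not tested.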

How the results depend on the processing

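Of 330 values under 9 alternatives, 277 were classed as the same and 53 as moved. A sum was the same if it stayed within its counting interval, and a count of members if it moved by at most 1.5 times. A median was the same if it stayed between the medians of its members' lower and upper counting limits. That range is typical of 1 member and is not an interval of the median. A median classed as the same could turn sign, as the nuclear median did for C2 ceramide over DMSO on day 4, at -0.03 in TPM and 0.020 with TMM. The largest move of a median or sum was 0.09 on the log2 scale, and the cause of these moves was not tested.

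For C2 ceramide over DMSO on day 4, the mitochondrial median (0.04 as reported) was 0.078 with TMM and 0.072 with DESeq2 size factors, that of complex III 0.068 and 0.063, and that of complex IV, -0.03 as reported, 0.053 and 0.047, and 0.040 without tissue-specific forms. The log2 ratio of the nuclear sum (-0.01) was 0.033 in CPM, 0.061 with TMM, 0.055 with DESeq2 and 0.031 in CPM with copies added, and that of the mitochondrial sum (-0.01) was 0.0055, 0.033 and 0.028 with CPM, TMM and DESeq2. Past the limit of 0.32, 5 members were higher with TMM and 5 with no count minimum, in place of 3. Among structural subunits without tissue-specific forms 3 were lower, in place of 7. Past 2-fold, 2 were higher with no minimum, and in place of 2 lower there was 1 with a pseudocount of 1 TPM and 1 with a minimum of 100 counts. Among structural subunits without tissue-specific forms there was 0, which was set by the choice, since Ndufa4l2 and Cox4i2 were left out by name.

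For DMSO day 4 over DMSO day 3, the mitochondrial median (-0.24) was -0.27 in CPM, -0.31 with TMM, -0.30 with DESeq2 and -0.27 with copies added, and the mitochondrial sum (-0.19) was -0.23, -0.27, -0.26 and -0.22. With TMM the medians of complexes I to V were -0.071, 0.020, -0.099, -0.14 and -0.054, and with DESeq2 those of complexes II and V were 0.030 and -0.044. The nuclear sum (-0.02) was -0.052 with TMM and -0.042 with DESeq2. Past the limit of 0.32, 1 structural subunit outside the tissue-specific forms was higher, in place of 4 members. Past 2-fold with no minimum, 2 members were lower, in place of 0.

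For C2 ceramide on day 4 over DMSO on day 3, the nuclear sum (-0.02) was 0.016 in CPM, 0.0082 with TMM, 0.013 with DESeq2 and 0.017 with copies added, and the mitochondrial sum (-0.20) was -0.22, -0.23, -0.23 and -0.23. Among structural subunits without tissue-specific forms 3 were lower past the limit of 0.32, in place of 8. Past 2-fold there was 0 in place of 1, Ndufa4l2, which that setting left out by name. Past 2-fold with no minimum, 1 was higher and 2 lower, and 2 were lower with TMM.

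No paired analysis was possible because each condition had 1 library. For the same reason no replicate was left out. Differences under about 0.1 on the log2 scale, most nuclear medians among them, lie within the range of these moves, and counts below about 50, as for Cox4i2, limit the rest.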
